A study of Mus musculus with 4 samples.

Results

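Chemokine and chemokine receptor transcripts were examined in LSK cells, the lineage-negative fraction of fetal liver that carries Sca-1 and Kit on its surface and holds the blood stem cells and multipotent progenitors. The genes were taken by symbol: the Ccl, Ccr, Cxcl, Cxcr, Xcl and Xcr series, the Cx3c pair, and the atypical receptors in their older names (Darc, Ccbp2, Ccrl1, Ccrl2 and Cxcr7). This gave 59 of the 20207 genes in the deposited table, of which 37 encode ligands, 17 typical receptors and 5 atypical receptors. The platelet chemokine genes Pf4 and Ppbp were left out by the same rule. The cells came from mouse embryos at E14.5, either wildtype or Brpf1-null. Brpf1 encodes a scaffold that holds MYST-family acetyltransferases on chromatin, and how its null allele was made is not given in the sources used here.

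Per the labels, each sample was a pool of about 10000 LSK cells from 4 embryos, and 2 samples per genotype formed 2 pairs. The table of the first pair and that of the second held the same value for every gene, with 0 wild-type and 0 Brpf1-null values differing. They were therefore counted as 1 library per genotype, so no difference below has a replicate check and no p-value is given. The depth, read off the steps between low values, was about 23650993 reads for the wild-type and 22220718 for the Brpf1-null library. A pair of values in RPKM below is always wild-type first, then Brpf1-null. Genes averaging 1 RPKM or more over the libraries are called measured. Brpf1 itself was at 2.59 and 2.15 RPKM (reads scaled by gene length and library size), 1.20-fold lower. This is a value over the whole gene and says little about any change in part of it, and what the null allele alters is not given. The gate genes Kit (25.6 and 21.3 RPKM) and Ly6a, which encodes Sca-1 (10.6 and 9.51 RPKM), were present in both libraries.

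Chemokines are small secreted proteins that guide cell migration and are classed by the spacing of their first cysteines as CC, CXC, XC or CX3C. They signal through receptors that couple to inhibitory G proteins, while atypical receptors bind the same ligands without that coupling and scavenge or transport them. In blood formation the best known pair is CXCL12 with CXCR4, which keeps stem cells in their niche. CCR9 and CCR7 guide progenitors to the thymus, and CCR2 lets monocytes leave the marrow.

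The Brpf1-null library had more transcript of the CC ligand genes Ccl5 and Ccl3 and of the inflammatory receptor genes Ccr2 and Ccr1. It had less transcript of the thymus-homing receptor gene Ccr9, of the atypical receptor genes Darc and Ccrl2, and of the ligand gene Ccl4. These were the 8 members that lay at least 1.5-fold apart among the 18 measured ones. The 1.5-fold limit was applied to log2((Brpf1-null RPKM + 1)/(wild-type RPKM + 1)), where it lies at 0.585, and the added 1 RPKM understates the difference of low genes. Higher members made up 4 of 18 (22.2%), against 14.1% of all 9380 measured genes. Lower members also made up 4 of 18 (22.2%), against 9.42%. The 18 members had means of 1.07 to 24.7 RPKM, and among the 7370 genes of 1 to 25 RPKM the shares were 15.4% higher and 9.93% lower. The members' median log2 change was 0.14, beside 0.04 for all measured genes.

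**Figure D1:**
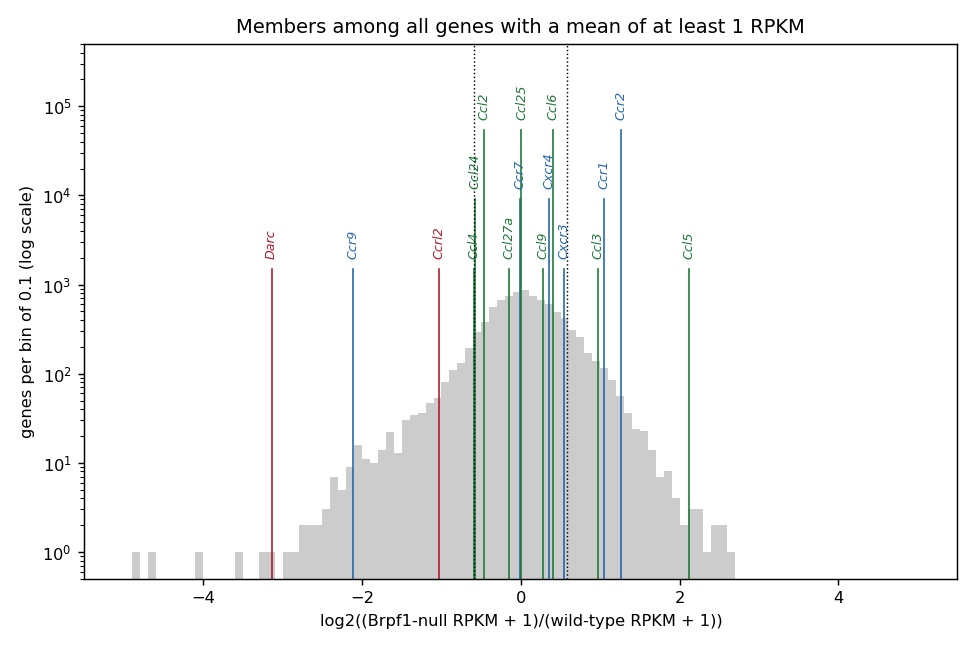
Histogram of the log2 change of all 9380 genes averaging 1 RPKM or more, with the number of genes per bin on a log axis. Coloured lines mark 17 chemokine ligand (green), receptor (blue) and atypical receptor (red) genes, from Darc at −3.14 to Ccl5 at 2.12, and dotted lines mark 1.5-fold.

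Folds given below are ratios of RPKM without the added 1 RPKM. The range in brackets is the 95% Clopper-Pearson interval from approximate reads. It covers counting error only, not the spread between embryos or pools, and treats reads as independent molecules. In pools of sorted cells, fewer cells of a type and less RNA per cell cannot be told apart. Centring each library on its median shifts every log2 change by −0.11, and all values below are relative to the deposited scale. Of all measured genes past 1.5-fold, 59.9% were higher on that scale and 44.4% after the centring. Under that centring, quantile normalization and removal of a trend on GC content, 18 of the 19 members with at least 1 RPKM in a library kept their direction. The exception was Ccl25.

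**Figure D2:**
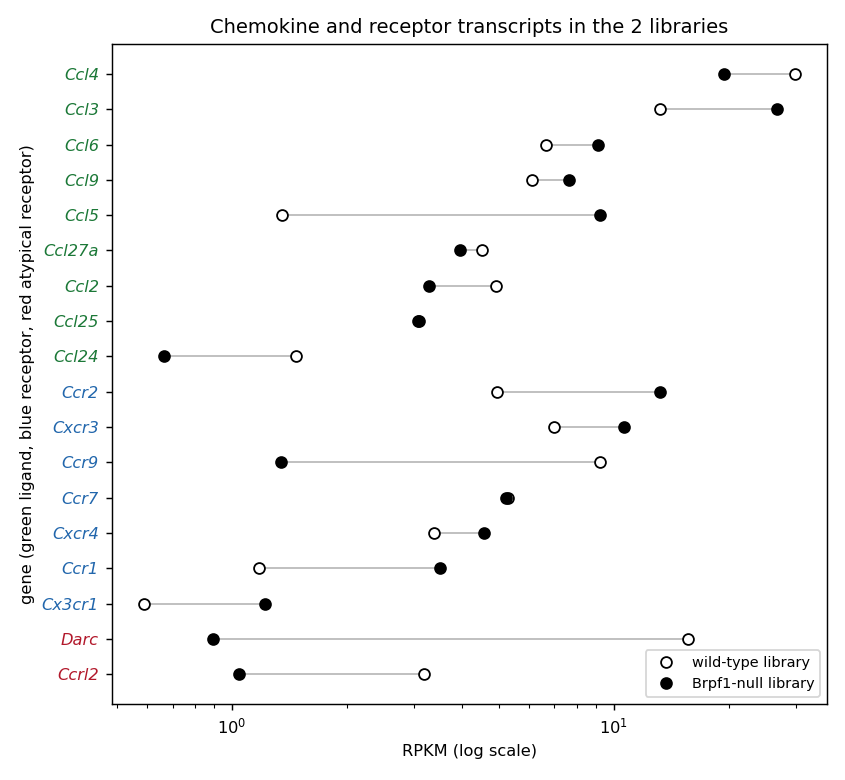
RPKM (log axis) of 18 members with at least 1 RPKM in either library, 1 row per gene, with open circles for the wild-type and filled circles for the Brpf1-null library (1 library each). The longest lines are those of Darc (15.7 to 0.894 RPKM), Ccr9 (9.20 to 1.35 RPKM) and Ccl5 (1.35 to 9.24 RPKM).

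Among the ligands that the symbol rule took, all 9 with at least 1 RPKM in a library were CC chemokines, out of 22 CC ligand genes. None of the 13 CXC ligand genes taken reached that level. The CXC genes Pf4 (29.8 and 5.51 RPKM) and Ppbp (12.6 and 0.125 RPKM), which the rule leaves out, lay above it in wild-type cells. The summed ligand signal was 72.9 and 84.4 RPKM, and Ccl3 and Ccl4 together supplied 59.1% and 54.9% of it. Of the 9 ligands, 4 had a higher value in the Brpf1-null library with an interval that excluded 1, 3 a lower value, and 2 an interval that included 1. Among all 9641 genes with at least 1 RPKM in a library and a matched length, 39.8% were higher and 33.0% lower by that interval.

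Ccl5 encodes RANTES, a ligand of CCR1 and CCR3 made by T cells, NK cells and macrophages. It was at 1.35 and 9.24 RPKM, from about 17 and 109 reads. The Brpf1-null value was 6.83-fold higher (4.07 to 12.1). Markers of T and NK cells, of which the gate should remove the mature ones, gave a mixed picture. Cd3e and Ncr1 were listed at 0 in both libraries, and the summed level of the 8 listed markers was 52.6 and 69.7 RPKM. Of the 3 measured markers in that list, Cd4 was at 1.01 and 4.29 RPKM, Nkg7 at 38.4 and 53.4 RPKM, and Lck at 12.3 and 11 RPKM. Their part in the Ccl5 value was not tested.

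Ccl3 and Ccl4 encode MIP-1α and MIP-1β, close relatives, and CCL3 binds CCR1 and restrains stem cell proliferation. They differed in opposite directions. Ccl3 was at 13.2 and 26.8 RPKM, 2.03-fold higher (1.73 to 2.38). Ccl4 was at 29.9 and 19.5 RPKM, 1.53-fold lower (1.32 to 1.78), from about 466 and 286 reads. The ratio of Ccl3 to Ccl4 was thus 0.443 in the wild-type library and 1.38 in the Brpf1-null library, while their sum was 43.1 and 46.3 RPKM. Ccl4 lay just past the 1.5-fold limit, at a log2 change of −0.59.

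The other CC ligands lay within 1.5-fold once 1 RPKM was added. Ccl6 and Ccl9, rodent chemokines of myeloid cells that act through CCR1, were at 6.65 and 6.11 RPKM in the wild-type library. In the Brpf1-null library Ccl6 was 1.37-fold higher (1.15 to 1.64) and Ccl9 1.25-fold higher (1.10 to 1.42). Ccl2, which encodes the monocyte attractant MCP-1, was at 4.93 and 3.29 RPKM, 1.497-fold lower (1.08 to 2.13). Ccl24 (eotaxin-2, which draws eosinophils through CCR3) was at 1.48 and 0.663 RPKM, 2.23-fold lower (1.28 to 4.03) from about 45 and 19 reads. With the added 1 RPKM, its log2 change of −0.57 fell just short of the 1.5-fold limit.

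Ccl25 and Ccl27a did not separate the libraries at this depth. Ccl25, the thymic and gut ligand of CCR9, was at 3.08 and 3.10 RPKM (ratio 1.01, 0.722 to 1.41). Its exons share up to 181 bases with those of Elavl1 on the opposite strand, a gene at 11 and 13.5 RPKM, and whether reads were counted by strand is not given in the sources used here. Ccl27a, a skin chemokine gene with near-identical copies in the mouse genome, was at 4.51 and 3.96 RPKM (1.14-fold lower, 0.789 to 1.67), and its value is uncertain for that reason.

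**Figure D3:**
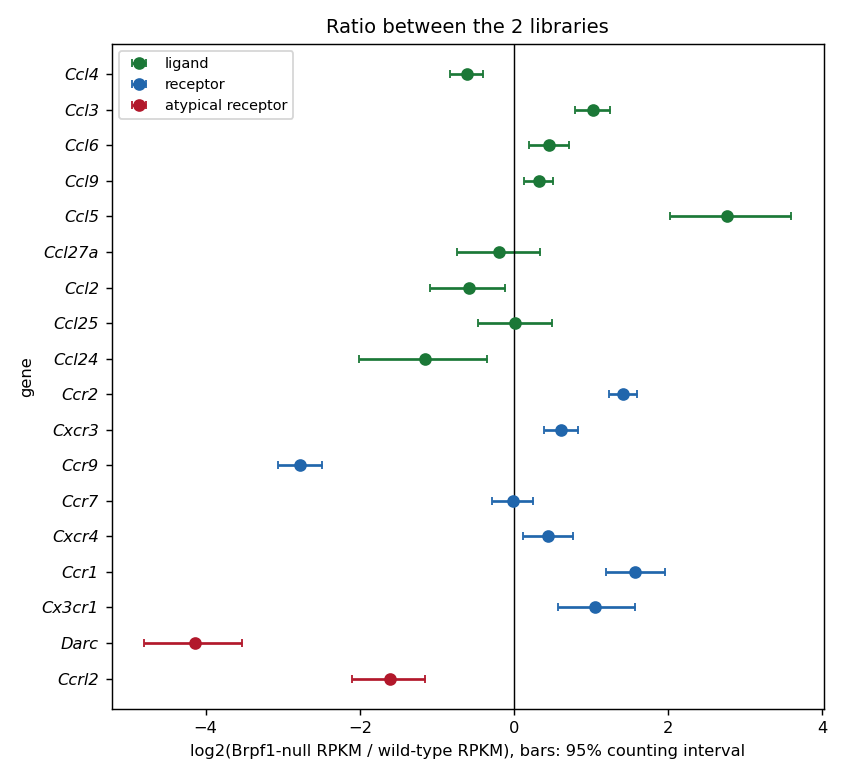
Log2 ratio of Brpf1-null to wild-type RPKM for the same 18 genes, with 95% counting intervals as bars. Intervals of 15 genes exclude 0, and those of Ccl27a, Ccl25 and Ccr7 include it.

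Of the 7 measured typical receptors, 2 were past 1.5-fold higher in the Brpf1-null library (Ccr2 and Ccr1), 1 was lower (Ccr9) and 4 lay within it. The shares of all measured genes were 14.1% higher and 9.42% lower. By the counting interval alone, of the 8 with at least 1 RPKM in a library, 6 had a higher value with an interval that excluded 1 (among them Ccr2, Ccr1, Cx3cr1, Cxcr3 and Cxcr4), Ccr9 a lower value, and Ccr7 an interval that included 1. Such intervals are common, as the 39.8% and 33.0% of all genes show. The summed level of the 17 receptor genes was 33.5 and 43.5 RPKM, and 24.3 and 42.2 RPKM without Ccr9. The most abundant receptor was Ccr9 in the wild-type library, with 27.4% of that sum, and Ccr2 in the Brpf1-null library, with 30.3%.

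Ccr2, the receptor for CCL2 on monocytes and their progenitors, was at 4.94 and 13.2 RPKM. The difference was 2.67-fold (2.36 to 3.04), from about 350 and 880 reads. Ccr1, a receptor for CCL3, CCL5, CCL6 and CCL9 on myeloid cells, was at 1.18 and 3.51 RPKM, 2.98-fold higher (2.29 to 3.90). The counting intervals of the Ccr2 and Ccr1 folds overlap. Cx3cr1, the fractalkine receptor gene of monocytes and macrophages, was at 0.590 and 1.22 RPKM, 2.07-fold higher (1.48 to 2.97), with a mean under 1 RPKM.

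Monocyte and dendritic cell markers moved with these receptors: 5 of 6 measured ones were past 1.5-fold higher and 0 lower, and the summed level of the 7 listed genes was 60.2 and 143 RPKM. Itgax, a defining dendritic gene, was under 1 RPKM in both (0.441 and 0.604 RPKM). Of the 9 measured macrophage markers, 2 were higher and 4 lower, with sums over the 10 listed genes of 82.4 and 97.9 RPKM. The part of these cells in the receptor differences was not tested.

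Ccr9, the receptor for CCL25 on thymus-seeding lymphoid progenitors and plasmacytoid dendritic cells, was at 9.20 and 1.35 RPKM. It was 6.83-fold lower (5.64 to 8.33), from about 880 and 121 reads. Ccr7, the other receptor known for thymus seeding, was at 5.29 and 5.24 RPKM, a difference not detectable at this depth (1.01-fold lower, 0.840 to 1.21). B-lineage markers were lower in the same library as Ccr9: 7 of 7 measured ones were past 1.5-fold lower, with a summed level over the 8 listed genes of 269 and 83.4 RPKM, and Pax5 was listed at 0 in both. The monocyte and dendritic markers given above went the other way, with 5 of 6 measured ones past 1.5-fold higher. The part of either set of cells in the Ccr9 difference was not tested. The annotation also places a long noncoding RNA across 1876 bases of Ccr9 on the opposite strand and another across 269 bases on the same strand. Reads from the shared stretches cannot be told apart, on the opposite strand if strand was not used and on the same strand in any case.

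Cxcr4, the stem cell retention receptor, was at 3.38 and 4.59 RPKM, 1.36-fold higher (1.09 to 1.70). Cxcr3, the receptor for interferon-induced CXC chemokines on T and NK cells, was at 6.97 and 10.6 RPKM, 1.53-fold higher (1.31 to 1.78) and within 1.5-fold with the added 1 RPKM. Cxcr3 lies on the X chromosome, and the sex make-up of the pools is not given in the labels. The Y-linked gene Ddx3y was at 5.87 and 1.65 RPKM and Xist, expressed from the inactive X, at 0.319 and 0.781 RPKM. The part of that in the Cxcr3 value was not tested.

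Both measured atypical receptors were past 1.5-fold lower in the Brpf1-null library, as were 9.42% of all measured genes. Darc, now named Ackr1 and known as the Duffy antigen, binds many CC and CXC chemokines on red cells and venular endothelium. It was at 15.7 RPKM, above every typical receptor, in wild-type cells and at 0.894 RPKM in Brpf1-null cells. It was 17.6-fold lower (11.5 to 27.9), from about 428 and 23 reads. Erythroid markers were lower in the same library, 8 of 8 by at least 1.5-fold, with a summed level of 605 and 89.6 RPKM. Endothelial markers went both ways, with 1 of the 4 measured ones higher (Tie1) and 1 lower (Emcn) and sums over the 8 listed genes of 30.4 and 25.6 RPKM. The listed genes under 1 RPKM in both libraries were mostly lower. Cdh5 was at 0.583 and 0.203 RPKM, Stab2 at 0.483 and 0.149 RPKM, and Lyve1 at 0.892 and 0.0345 RPKM, while Kdr was higher (0.132 and 0.330 RPKM). The part of either cell type in the Darc difference was not tested. Darc shares exon sequence with Cadm3 on the same strand. Cadm3 was at 0.0203 and 0 RPKM, and the part of shared reads in the Darc value was not tested.

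Ccrl2, which binds the chemoattractant chemerin and presents it to neighbouring cells, was at 3.19 and 1.05 RPKM, 3.05-fold lower (2.22 to 4.29), from about 163 and 50 reads. The remaining atypical receptors were under 1 RPKM in both libraries. Cxcr7 (now Ackr3), the scavenger of CXCL12, read 0.164 RPKM in wild-type cells, from about 12 reads. It was listed at 0 in the Brpf1-null library, where 3 reads would read 0.0440 RPKM. Ccbp2 (Ackr2), a scavenger of inflammatory CC chemokines, was listed at 0 and at 0.0808 RPKM. Ccrl1 (Ackr4) was listed at 0 in both.

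The promoters of 5 members past 1.5-fold are shown so that genes which differed in either direction can be compared in sequence. They are the members past that limit with a single entry in the RefSeq promoter table (build GRCm38.p6, from 250 bases before to 50 after the start site). Each is printed in the direction of transcription. Capitals mark matches, on either strand, to GAAANNGAA (a core of interferon response elements), AGATAA (the core bound by GATA factors) or GGGNNTTTC (a core of NF-kB sites). The 3 motifs occurred in 8.56%, 11.2% and 4.36% of the 32851 promoter windows of that length, and a match is only a description. Files and table differ in build, so the coordinates are those of the table alone.
Darc, chr1:173333454-173333753, minus strand: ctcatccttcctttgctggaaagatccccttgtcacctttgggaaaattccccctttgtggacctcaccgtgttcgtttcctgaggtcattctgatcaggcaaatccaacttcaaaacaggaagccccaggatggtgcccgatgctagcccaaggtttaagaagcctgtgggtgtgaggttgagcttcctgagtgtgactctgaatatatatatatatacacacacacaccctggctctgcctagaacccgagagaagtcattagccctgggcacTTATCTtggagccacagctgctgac
Ccr9, chr9:123766961-123767260, plus strand: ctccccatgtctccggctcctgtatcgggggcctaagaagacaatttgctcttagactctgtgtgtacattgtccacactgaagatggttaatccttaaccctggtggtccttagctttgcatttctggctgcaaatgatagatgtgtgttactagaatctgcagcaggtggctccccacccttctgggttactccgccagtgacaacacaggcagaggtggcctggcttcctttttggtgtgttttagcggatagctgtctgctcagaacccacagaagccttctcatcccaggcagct
Ccr2, chr9:124101933-124102232, plus strand: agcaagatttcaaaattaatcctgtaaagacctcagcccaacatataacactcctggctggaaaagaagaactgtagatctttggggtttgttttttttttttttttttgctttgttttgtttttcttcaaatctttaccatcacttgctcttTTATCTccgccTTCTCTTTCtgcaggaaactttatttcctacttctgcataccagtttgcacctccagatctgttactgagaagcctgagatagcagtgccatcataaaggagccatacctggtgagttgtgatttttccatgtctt
Ccr1, chr9:123968643-123968942, minus strand: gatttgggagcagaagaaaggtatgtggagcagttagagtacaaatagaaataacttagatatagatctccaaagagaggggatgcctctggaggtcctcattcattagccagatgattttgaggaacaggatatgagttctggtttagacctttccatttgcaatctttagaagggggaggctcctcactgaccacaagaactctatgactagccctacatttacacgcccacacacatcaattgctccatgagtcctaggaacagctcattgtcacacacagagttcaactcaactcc
Ccl3, chr11:83649329-83649628, minus strand: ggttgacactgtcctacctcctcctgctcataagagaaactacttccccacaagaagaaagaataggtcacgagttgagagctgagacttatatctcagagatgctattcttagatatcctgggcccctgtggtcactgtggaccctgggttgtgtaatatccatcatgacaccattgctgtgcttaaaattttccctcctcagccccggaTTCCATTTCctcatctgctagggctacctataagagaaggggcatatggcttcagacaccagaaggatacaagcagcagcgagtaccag

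Counted from the start site, the window of Darc held an AGATAA match at position 26. The Ccr2 window held an AGATAA match at −97 and a GAAANNGAA match at −86, and the Ccl3 window a GAAANNGAA match at −39. None of the 5 held GGGNNTTTC, and the windows of Ccr9 and Ccr1 held none of the 3 motifs. Of the 4 other members measured at 1 RPKM with a single entry, Cxcr4, Cxcr3 and Ccl9 had a GGGNNTTTC match and Ccl6 had no match. Measured members with several entries are not shown. Among them Ccrl2, past 1.5-fold lower, had a GGGNNTTTC match at −229 of a start site and AGATAA at −77 or −103 of others. Ccl27a, within the limit, had AGATAA at −105 and −44 in a window, and Ccl25 had no match. The GATA-type motif was thus present in Darc, which was lower, and in Ccr2, which was higher.

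Neighbouring members did not all share a direction. In the group of 5 CC ligand genes from Ccl5 to Ccl4 on chromosome 11, all 5 were measured at 1 RPKM or more, 2 past 1.5-fold higher and 1 lower. Of all measured genes, 14.1% were past it higher and 9.42% lower. Within it Ccl5 and Ccl3 were past that limit higher, Ccl9 and Ccl6 lay within it, and Ccl4 was lower. The neighbouring group on chromosome 11 from Ccl2 to Ccl1 had 1 of 6 members at that level (Ccl2) and 4 listed at 0 in both libraries. In the group of receptor genes on chromosome 9 that runs from Ccr9 past Ccr2, Ccr1 and Ccr2 were higher and Ccr9 lower. Its members Cxcr6, Xcr1, Ccr1l1 and Ccr3 lay under 1 RPKM in both libraries. Of the 5 CXC ligand genes grouped from Cxcl5 to Cxcl2 on chromosome 5, none was measured at that level.

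**Figure D4:**
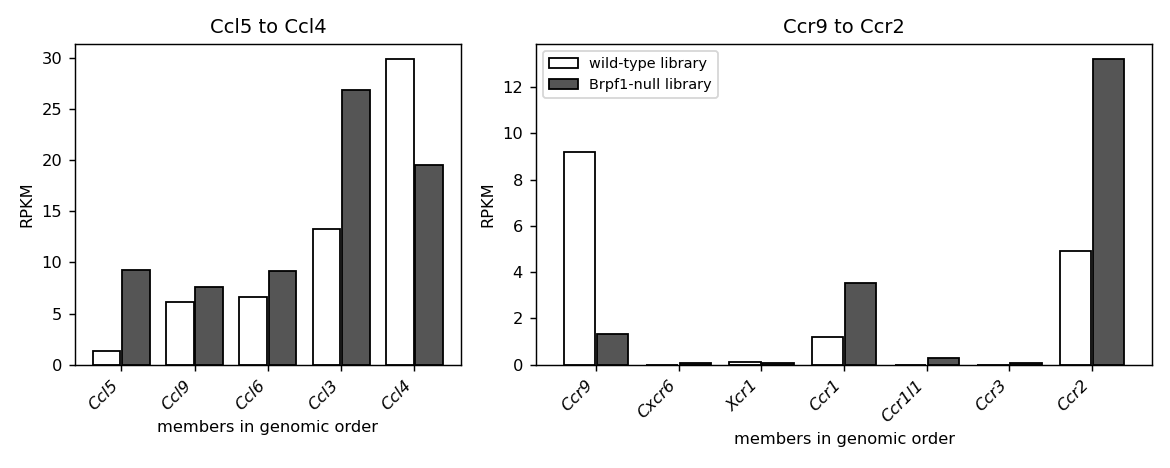
RPKM (linear axis from 0) of members in 2 gene groups, in genomic order by the RefSeq annotation of GRCm38.p6, with white bars for the wild-type and grey bars for the Brpf1-null library (1 library each, no error bars). Ccl3 (13.2 and 26.8 RPKM) and its neighbour Ccl4 (29.9 and 19.5 RPKM) differ in opposite directions, as do Ccr9 and Ccr2.

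Set beside their receptors, the ligands did not all share their receptor's direction. For CCR1, the receptor and its ligands Ccl3, Ccl5, Ccl6 and Ccl9 all had higher values in the Brpf1-null library. For CCR2, the receptor was higher and Ccl2 lower. For CCR9, the receptor was lower while Ccl25 stayed near 3 RPKM. For CXCR4, the ligand Cxcl12 was low, at 0.320 and 0.219 RPKM (1.46-fold lower, 0.757 to 3.08, from about 24 and 15 reads). The ligands of CXCR3 were at or near 0, with Cxcl9 at 0 and 0.0929 RPKM, Cxcl10 at 0 and 0.0847 RPKM, and Cxcl11 at 0 in both. The CCR7 ligands Ccl19 and Ccl21a, with the copies Ccl21b and Ccl21c, were also listed at 0, but they have near-identical copies and are not read as absent.

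The other 40 of the 59 members stayed under 1 RPKM in both libraries, and 19 of those were listed at 0 in both. Of all 20207 genes, 10442 were under 1 RPKM in both and 5979 (29.6%) were listed at 0 in both. Over all 59 members, 33 were above 0 in wild-type and 35 in Brpf1-null cells, beside 13583 and 13269 of all genes. Of the 40 low members, the 21 above 0 in a library reached at most 0.769 RPKM. That highest value belonged to Ccr6, the CCL20 receptor of B cells and lymphoid tissue inducer cells, in the Brpf1-null library, against 0.0482 RPKM in the wild-type library. The ratio was 16.0 (4.05 to 138) but rests on about 2 and 30 reads. Cxcr5, the follicle-homing receptor of B cells, was at 0.372 and 0.740 RPKM, 1.99-fold higher (1.17 to 3.46). Ccr8 was at 0.512 and 0.156 RPKM, 3.29-fold lower (1.03 to 13.7) on about 14 and 4 reads. Ccr1l1, a relative of Ccr1, was listed at 0 in the wild-type library, where 3 reads would read 0.109 RPKM, and at 0.308 RPKM in the Brpf1-null library.
The monocyte-attracting relative of Ccl2, Ccl12, was at 0.473 and 0.168 RPKM on about 6 and 2 reads (2.82-fold lower, 0.504 to 28.6). The neutrophil chemokine genes Cxcl1 (0.223 and 0 RPKM), Cxcl2 (0.156 and 0.166 RPKM) and Cxcl3 (0.167 and 0 RPKM) rested on at most 5 reads per library. Ccr4, a receptor of helper T cells, was at 0.0152 and 0.0484 RPKM, about 1 and 3 reads. Xcr1, which marks cross-presenting dendritic cells, was at 0.103 and 0.0803 RPKM, and its ligand gene Xcl1 was listed at 0 in both. The fractalkine gene Cx3cl1 was at 0.161 and 0.2004 RPKM, from about 13 and 15 reads. Cxcl16 (0 and 0.129 RPKM) and its receptor gene Cxcr6 (0 and 0.0951 RPKM) were seen in the Brpf1-null library alone, as was the eosinophil receptor gene Ccr3 (0 and 0.0825 RPKM). Cxcl17 (0.111 and 0 RPKM) and Ccl17 (0.0824 and 0 RPKM) were seen in the wild-type library alone, and Ccr10 in neither. Exons of Cxcr5 overlap those of Bcl9l on the opposite strand, which was at 0.690 and 1.39 RPKM (2.01-fold higher), and the part of its reads in the Cxcr5 value was not tested. The gene that overlaps Cxcl16, Zmynd15, was listed at 0 in both libraries. At these levels a difference between the libraries could not be resolved for most of these genes.

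The machinery that carries chemokine signals was mostly above the 1 RPKM level. Of 34 genes for G proteins, PI3K-gamma, phospholipase C, Rac activators and kinases downstream of the receptors, 31 were measured, of which 5 were past 1.5-fold higher and 1 lower, with a median log2 change of 0.20. Of all measured genes, 14.1% were higher and 9.42% lower, with a median of 0.04. Pik3r5, a regulatory subunit of PI3K-gamma, was at 0.872 and 3.41 RPKM. Akt1, a kinase activated by PI3K, was at 27.1 and 50.5 RPKM. Gnb4, a G protein beta subunit, was lower, at 4.53 and 1.54 RPKM. The main Gi subunit of blood cells, Gnai2, was at 100.2 and 131 RPKM, and Rac2 at 203.7 and 180.6 RPKM, both within 1.5-fold and named after their values were seen.

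Of 15 measured genes that end chemokine signals (receptor kinases, arrestins, RGS proteins and turnover), 2 were higher, 1 lower and 12 within 1.5-fold, where 76.5% of all measured genes lay, with a median log2 change of 0.04. Rgs2, which speeds the shut-off of G proteins, was at 8.99 and 14.9 RPKM, and Adrbk2, the receptor kinase GRK3, at 1.31 and 2.54 RPKM. Rgs3 was at 1.41 and 2.50 RPKM, within 1.5-fold with the added 1 RPKM. Itch, a ubiquitin ligase that sorts CXCR4 for degradation, was lower, at 4.62 and 2.50 RPKM. Once the libraries were centred on their medians, neither Rgs2 nor Adrbk2 passed 1.5-fold.

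Among 17 receptors for other leukocyte attractants, 5 were measured. For this list and the next, the shares of all measured genes past 1.5-fold were 14.1% higher and 9.42% lower. Gpr183, an oxysterol receptor that positions B cells and dendritic cells, was at 3.84 and 11 RPKM, the only one of the 5 past 1.5-fold higher. P2ry12, an ADP receptor of platelets and microglia, was the only one of the 5 past it lower, at 4.99 and 2.44 RPKM. Without the filter on low values, 4 of the 17 were higher and 2 lower. The low genes this added were S1pr2 (0.210 and 1.39 RPKM), S1pr3 (0.166 and 0.840 RPKM) and Ptafr (0.0697 and 1.26 RPKM), all higher. Fpr1 (0.703 and 0 RPKM) was lower. P2ry14 was at 4.58 and 7.16 RPKM and S1pr1, which guides exit into blood, at 2.33 and 2.75 RPKM. Of 12 transcription factors and inhibitors that act on chemokine genes, 9 were measured, 2 higher and 1 lower. Irf8 was at 9.24 and 32.6 RPKM and Irf7 at 4.25 and 8.14 RPKM, both higher, and Irf8 is also among the monocyte and dendritic markers. The NF-kB inhibitor gene Nfkbia was lower, at 26.5 and 11.6 RPKM, and the interferon signalling gene Stat2 was within 1.5-fold, at 1.47 and 2.51 RPKM.

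Over these lists together, 10 of 60 measured genes were higher and 4 lower, beside the 14.1% and 9.42% of all genes. Transcripts of cells outside the LSK gate differed between the libraries as well. The 8 hepatocyte markers were all at least 1.5-fold lower, with sums of 1546 and 398 RPKM. Of the 7 neutrophil markers in the table, 1 was higher and 5 lower, with sums of 518 and 627 RPKM that Mpo dominated (351 and 570.1 RPKM). Among mast cell, basophil and eosinophil markers, 4 were measured, 1 higher and 2 lower, and of 4 measured megakaryocyte markers 0 were higher and 3 lower. The megakaryocyte genes averaging under 1 RPKM went both ways. Itga2b was higher (0.234 and 1.01 RPKM), while Gp6 (0.147 and 0 RPKM) and Gp1bb (0.0458 and 0.0244 RPKM) were lower. Of the 7 stem and multipotent markers 1 was higher and 3 lower, and of the 2 measured stromal markers 0 were higher and 1 lower.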

How the data were processed

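RNA of sorted LSK cells was sequenced from oligo-dT-primed libraries, and reads were aligned with TopHat to mm9, per the submitters' processing notes. The sources used here do not give the aligner version, gene annotation, counting program or strand setting. Each pair has 1 deposited table, in RPKM (pair 1) or FPKM (pair 2) per the file headers, with the authors' fold change, a ratio, and its log2. All 12624 of these ratios equalled wild-type over Brpf1-null within a relative tolerance of 0.001, the direction opposite to that used here, and were left out. Both tables held the same values.

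Genes were matched to GENCODE M21 (GRCm38) directly or through RefSeq synonyms (98.1% of symbols and all 59 members) for lengths, GC content and neighbours. Library sizes were the values at which most low RPKM were whole reads within 0.1 read (58.6% of 1820 wild-type and 62.0% of 1811 Brpf1-null values, against 22.7% and 24.5% with sizes raised by 5%), a search tested on simulated data. Reads per gene used the RefSeq-matched transcript length (median where several). For genes with few reads, the matched length that gave reads closest to whole numbers was used where it came within 0.1 read. Reads are therefore approximate. Intervals are Clopper-Pearson at 95%.

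Named were all members with at least 1 RPKM in a library, and 4 genes per pathway list with the largest change among those averaging 1 RPKM or more. Some genes that this rule takes are not reported here. Other named genes are ligand partners, overlapping genes, markers, sex-linked genes, low members or pathway list genes chosen after their values were seen. The members and lists were chosen with earlier results of these data known, and the list of ligand and receptor partners was written after the values were seen. The planned test with pairs could not be run on identical tables. Protein features were not analysed here. Computation used Python 3.11.15, pandas 2.3.3, scipy 1.17.1 and statsmodels 0.14.6.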

Additional observations from a re-analysis of the deposited data

How the results depend on the processing

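No paired analysis was possible because both tables held the same values, which leaves 1 library per genotype, and no library could be left out in turn. Of the 8 members past 1.5-fold, Darc, Ccr9, Ccr2 and Ccl5 kept that call under all 8 alternatives run (pseudocounts of 0.1 and 5, no filter, a filter at 5 RPKM, centring, quantile normalization, GC trend removal and a 2-fold limit). Ccl3 lost it at 2-fold, Ccl4 at 2-fold and with a pseudocount of 5, and Ccrl2 and Ccr1 with a pseudocount of 5 and the stricter filter, which drops both genes. With a pseudocount of 5, 2 members were lower and 3 higher. With one of 0.1, 6 were higher and 5 lower, Cxcr3 and Ccl24 among them. The members' median log2 change was 0 with no filter, 0.34 with genes averaging 5 RPKM or more and 0.0319 after centring.

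Over all genes, 554 were higher and 393 lower with a pseudocount of 5, 793 and 483 with genes averaging 5 RPKM or more, and 388 and 325 at 2-fold. The share of higher genes among those past 1.5-fold was 59.9% as deposited and 44.4% (961 higher, 1204 lower) after centring, 52.3% after quantile normalization and 49.2% after GC trend removal. The 4 pathway lists had 6 higher and 1 lower with a pseudocount of 5, 4 higher and 2 lower at 2-fold, and 1 lower with genes averaging 5 RPKM or more. Using the longest transcript for read estimates changed the side of 1 for 0 of 19 intervals. The planned look at protein motifs was not run, as no protein table was used here.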
